A study of Mus musculus with 31 samples.

Results

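At the start of mouse chromosome 9 the assembly holds a block of satellite repeat on which GENCODE M21 places 10 genes, Gm26870, Gm10722, Gm11168, Gm10721, Gm10720, Gm10719, Gm10718, Gm10717, Gm17535 and Gm10715. They were chosen by their position in mm10 (chr9:3000282-3038316) and because an earlier look at the same values had found them higher in Dicer-depleted than in wild-type (WT) preexisting RNA. That contrast is therefore given below as a description, with no test for these genes. All 10 were found among 57193 genes and unmatched entries with exonic values, and all 10 were among the 21821 with a mean of at least 1 TPM (transcripts scaled by length to a fixed library total) over the 16 libraries. Their reads come from copies of the same repeat, so the 10 genes are treated as 1 shared signal and are not independent of one another.

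The libraries were made from DTCM23/49 XY mouse embryonic stem cell lines, cultured on gelatin with serum and leukaemia inhibitory factor. All carry the conditional Dicer mutant according to the sample source, and the labels give 8 days of treatment for the WT and the Dicer depleted samples alike. Loss of Dicer1, the gene for the endonuclease that matures microRNAs, was induced with 800 nM 4-hydroxytamoxifen. Whether the WT cells received the drug, and which Cre recombinase acted, is not given in the sources used here. Cells were given 200 uM 4-thiouridine (4sU), a uridine analogue built into RNA as it is made, for 10 or 15 min, and the labelled RNA was separated from the rest, which the sample characteristics call preexisting and the titles call total. Each genotype had 2 numbered biological replicates, called cultures here, and each culture had 1 library per fraction and labelling time, which gives 16 libraries. The series' small RNA libraries were not used here. Nothing in the labels says whether the 2 cultures of a genotype are separate clones, so p-values measure only the spread between these samples.

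Major satellite DNA is the tandem repeat of mouse pericentromeric heterochromatin, the compact chromatin beside mouse centromeres, which is marked by trimethylated histone H3 lysine 9, HP1 proteins and DNA methylation. The repeat is transcribed at low levels from both strands, and its RNA is known to be higher in early embryos, in stressed cells and in cells whose heterochromatin is weakened. Small RNAs and Dicer guide heterochromatin formation at centromeric repeats in fission yeast, and the question of a similar link in mouse stem cells has been studied for many years. The assembly holds only fragments of these arrays, so reads from unassembled copies on many chromosomes can be counted on the genes described here.

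The block measured 38035 bases and repeated itself with a period of 234 bases, at which 71.4% of positions carried the same base, with a weaker period of 58 bases (56.3%). It has 46.8% T on its plus strand. The unit found in an exon of Gm10720 was taken as the reference, and lower case letters below are shared with it while capitals mark bases that differ. The other units are shown because they span the range from the most to the least similar member and include a copy on another chromosome. The Gm10720 unit lies at chr9:3016461-3016694, that of Gm17535 at chr9:3034763-3034996, that of Gm10719 at chr9:3020786-3021019, that of Gm26870 at chr9:3014005-3014238, that of Gm10715 at chr9:3037041-3037274 and that of Gm21738 at chr14:19417133-19417366 on the minus strand. The chromosome 9 units are given 5′ to 3′ on the plus strand, which is antisense to Gm26870, and all were read from the GRCm38 (mm10) RefSeq sequence.
Gm10720: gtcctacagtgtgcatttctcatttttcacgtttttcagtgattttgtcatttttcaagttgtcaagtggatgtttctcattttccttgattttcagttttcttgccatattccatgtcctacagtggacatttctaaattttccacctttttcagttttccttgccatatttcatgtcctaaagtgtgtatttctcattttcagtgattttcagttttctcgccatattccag
Gm17535: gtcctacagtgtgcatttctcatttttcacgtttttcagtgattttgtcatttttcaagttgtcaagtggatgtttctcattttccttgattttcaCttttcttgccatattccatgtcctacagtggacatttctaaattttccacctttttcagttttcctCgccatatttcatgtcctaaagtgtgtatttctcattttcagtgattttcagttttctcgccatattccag
Gm10719 and Gm26870: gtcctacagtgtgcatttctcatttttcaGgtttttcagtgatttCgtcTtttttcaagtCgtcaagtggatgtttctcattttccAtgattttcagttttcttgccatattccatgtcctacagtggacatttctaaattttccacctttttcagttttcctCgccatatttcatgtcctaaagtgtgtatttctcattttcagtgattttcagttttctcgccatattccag
Gm10715: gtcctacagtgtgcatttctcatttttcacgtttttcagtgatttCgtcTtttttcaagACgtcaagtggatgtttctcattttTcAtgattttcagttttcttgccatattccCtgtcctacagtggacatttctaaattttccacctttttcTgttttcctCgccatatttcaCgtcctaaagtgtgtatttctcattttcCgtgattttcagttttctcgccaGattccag
Gm21738: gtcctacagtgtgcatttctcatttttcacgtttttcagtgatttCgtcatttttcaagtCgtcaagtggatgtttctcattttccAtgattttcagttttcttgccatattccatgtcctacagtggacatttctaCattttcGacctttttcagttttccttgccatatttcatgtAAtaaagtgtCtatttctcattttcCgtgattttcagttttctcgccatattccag

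The units of Gm10719 and Gm26870 were the same in all 234 bases. Gm17535 differed from the reference at 2 bases (99.1% identity) and Gm10715 and Gm11168 at 12 (94.9%). Over all 45 pairs of the 10 members the units were 93.2 to 100% identical. Each unit is its gene's best match to a reference chosen for closeness to all members, so high identity was built into this choice. Over the block as a whole 71.4% of positions were equal at the period. A short read can match several members equally well, and the authors' RSEM step divides such reads between them by estimate. The units held 2 to 7 CpG, the site of DNA methylation in mouse, and 234-base windows of the block held a median of 5 against 1 in the rest of the chromosome.

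Of the 10 genes, 9 are annotated as protein-coding models on the plus strand, with 23 transcripts of 639 to 684 bases. The remaining gene, Gm26870, is a long intergenic noncoding RNA gene that spans chr9:3000282-3038313 on the minus strand with 3 transcripts and so runs across the others. The coding models join pieces of repeat across exons as short as 3 bases, and 18 of their 103 exons had 12 bases or fewer. Of the 2692 exonic bases of Gm26870, 1470 (54.6%) are also exonic in a plus-strand member. The strand setting of the quantification is not given in the sources used here, so reads of the opposite strands cannot be told apart. Of the 16-base words of each member's spliced transcripts, 85.2 to 100% occurred in the block. All member exons lie in the block, so words absent from it can only be those across exon joins. Between 74.0% (Gm10717) and 98.0% (Gm10720) of a member's words occurred in another gene.

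**Figure D1:**
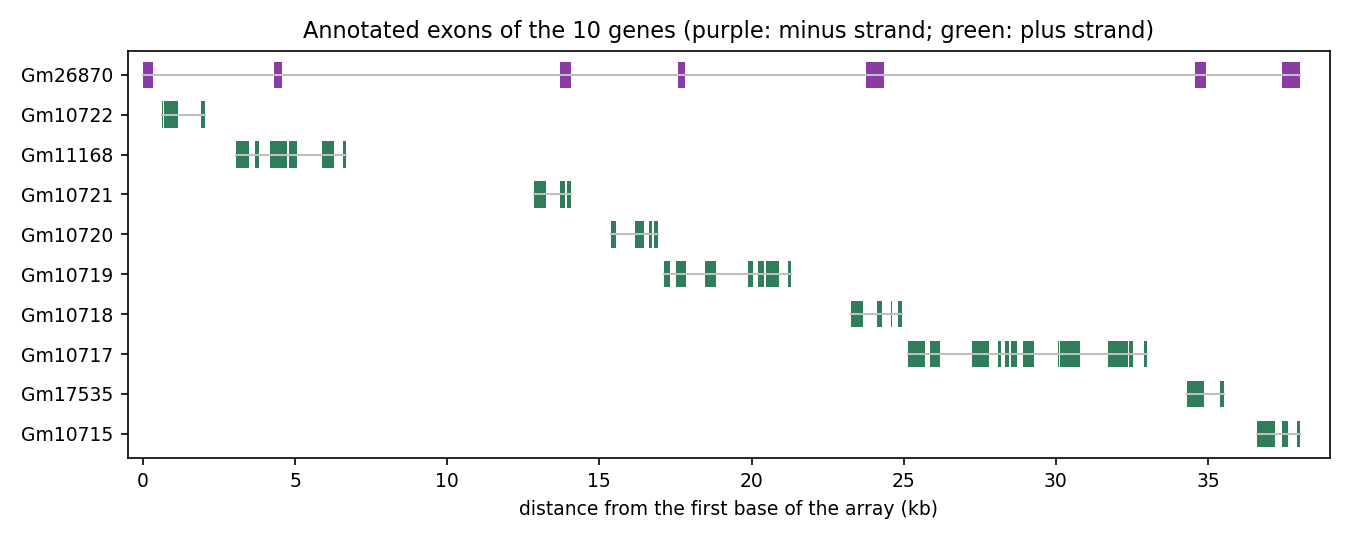
Annotated exons of the 10 genes along the block, with the distance from its first base in kb on the horizontal axis and 1 gene per row. Purple marks the minus-strand gene Gm26870, which spans the whole block, and green marks the 9 plus-strand models, which follow each other along it.

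The summed exonic signal of the 10 genes was higher in every Dicer-depleted library than in any WT library of the same fraction. Of all 21821 genes tested, the same held for 7.03% in preexisting and 10.9% in labelled RNA. In preexisting RNA the sum was 208 and 166 TPM in WT culture 1 at 10 and 15 min of labelling, and 116 and 79.4 TPM in WT culture 2. It was 849 and 732 TPM in depleted culture 1, and 1448 and 1289.8 TPM in depleted culture 2. Averaged over the labelling times, the WT cultures gave 142 ± 63.5 TPM and the depleted ones 1079.5 ± 409 TPM (SD, n = 2 each), a 7.58-fold ratio of means. The cultures of a genotype differed too, WT culture 1 lying above WT culture 2 and depleted culture 2 above depleted culture 1, so the ratio ran from 4.22 for the nearest pair of cultures to 14.0 for the farthest.

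In labelled RNA the sum was 509 and 461 TPM in WT culture 1 at 10 and 15 min, and 307 and 213 TPM in WT culture 2. It was 2852 and 2217 TPM in depleted culture 1, and 2672 and 1476 TPM in depleted culture 2. The WT cultures averaged 372 ± 159 TPM and the depleted ones 2304 ± 326 TPM (SD, n = 2 each), a 6.19-fold ratio, and single pairs of cultures gave 4.28 to 9.75. Here depleted culture 1 was the higher of the depleted pair, the opposite order to preexisting RNA. In bulk RNA, more cells with the transcript and more transcript per cell cannot be told apart. At its highest the signal made up 0.285% of a library's TPM, and at its lowest 0.00794%.

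**Figure D2:**
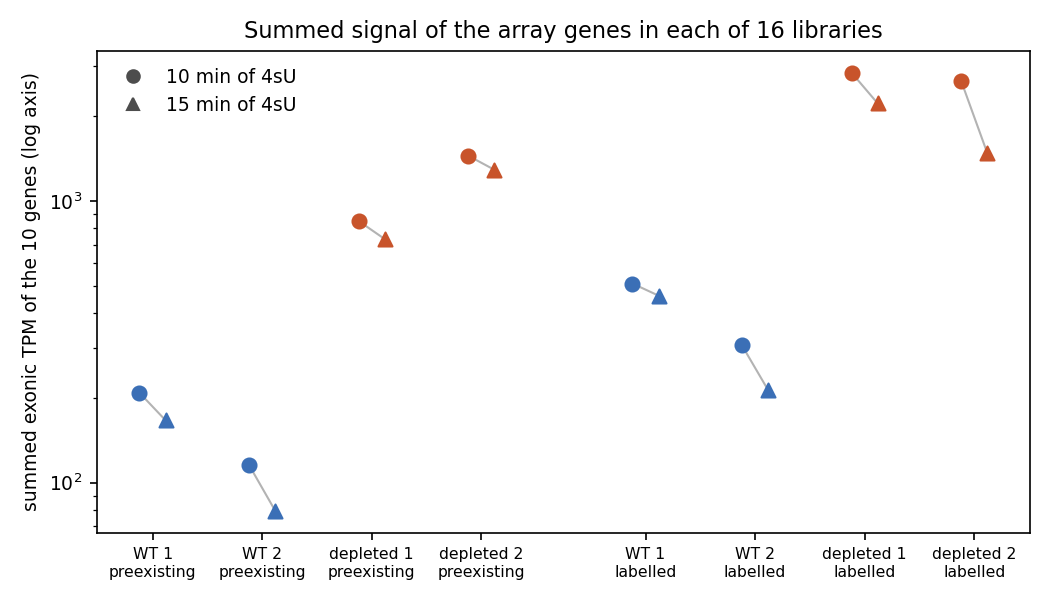
Summed exonic TPM of the 10 genes in each of the 16 libraries, on a log axis, by fraction, genotype and culture number, with a circle for 10 min and a triangle for 15 min of 4sU. WT preexisting libraries lie between 79.4 and 208 TPM and depleted ones between 732 and 1448 TPM, WT labelled libraries between 213 and 509 TPM and depleted ones between 1476 and 2852 TPM, and the 15 min library is the lower of each pair.

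The most abundant members were Gm11168, a coding model, and Gm26870, the antisense noncoding gene. Gm11168 gave a median of 25.4% of the sum over the 16 libraries (22.8 to 27.1%) and Gm26870 20.0% (19.0 to 21.3%). Gm10720, the gene of the reference unit, gave the least, 1.77% (1.21 to 2.10%). Each member kept nearly the same share of the sum in all libraries, and the largest relative swing was that of Gm10720, whose highest share was 1.74 times its lowest. Over the 16 libraries, Pearson's r between log2(TPM + 1) of 2 members was 0.985 to 1.00 for all 45 pairs. That is a description of genes that share reads, depth and libraries.

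Gm26870 was read at 39.6 and 34.1 TPM in WT culture 1 preexisting RNA, 24.3 and 15.98 TPM in WT culture 2, 179.5 and 146 TPM in depleted culture 1, and 302 and 274 TPM in depleted culture 2, at 10 and 15 min each. In labelled RNA it was read at 97.9 and 93.0 TPM in WT culture 1, 59.8 and 42.2 TPM in WT culture 2, 569 and 428 TPM in depleted culture 1, and 527 and 290.5 TPM in depleted culture 2. The genotypes did not overlap in either fraction, where 7.03% of all genes in preexisting and 10.9% in labelled RNA stood apart in this direction.

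Gm11168 was read at 53.2 and 41.4 TPM in WT culture 1 preexisting RNA, 26.3 and 19.1 TPM in WT culture 2, 205 and 185 TPM in depleted culture 1, and 344 and 302 TPM in depleted culture 2. In labelled RNA it was read at 127.5 and 125 TPM in WT culture 1, 80.8 and 54.9 TPM in WT culture 2, 738 and 589 TPM in depleted culture 1, and 713 and 388 TPM in depleted culture 2. It showed the same order of cultures as Gm26870 in both fractions.

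Gm10720, the lowest, was read at 3.41 and 2.19 TPM in WT culture 1 preexisting RNA, 2.16 and 0.958 TPM in WT culture 2, 15.9 and 13.8 TPM in depleted culture 1, and 29.2 and 27.1 TPM in depleted culture 2. In labelled RNA it was read at 6.40 and 6.65 TPM in WT culture 1, 4.33 and 3.68 TPM in WT culture 2, 49.2 and 41.8 TPM in depleted culture 1, and 48.6 and 27.2 TPM in depleted culture 2. At these low levels the genotypes again stood apart in both fractions, beside the same 7.03% and 10.9% of all genes. The depth of the libraries is unknown, since TPM keeps none, so no counting error can be given for these values.

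The middle of the range was held by coding models. Gm10717, the longest of them with 9 transcripts, averaged 22.2 ± 9.05 TPM in WT and 156 ± 59.3 TPM in depleted preexisting RNA, and 54.9 ± 22.9 against 330.4 ± 47.9 TPM in labelled RNA (SD, n = 2 cultures). Gm10719 averaged 19.0 ± 8.20 and 152 ± 62.3 TPM in preexisting RNA, and 49.2 ± 20.5 and 308 ± 45.7 TPM in labelled RNA. Gm10718 averaged 9.91 ± 4.32 and 82.6 ± 31.7 TPM in preexisting RNA, and 25.5 ± 11.5 and 164 ± 24.5 TPM in labelled RNA. The standard deviation in depleted cells was larger in preexisting than in labelled RNA for each of these 3 genes, although the level was lower.

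Gm10722, the model nearest the start of the block, averaged 8.01 ± 4.51 TPM in WT and 58.01 ± 18.8 TPM in depleted preexisting RNA, and 22.2 ± 10.4 against 141 ± 16.9 TPM in labelled RNA (SD, n = 2 cultures). Gm10721 averaged 8.36 ± 3.37 and 55.3 ± 22.6 TPM in preexisting RNA, and 20.2 ± 9.14 and 114 ± 19.1 TPM in labelled RNA. Gm10715, at the far end, averaged 6.20 ± 2.56 and 45.9 ± 16.6 TPM, and 16.8 ± 6.58 and 92.9 ± 15.6 TPM. Gm17535 averaged 3.08 ± 1.43 and 23.3 ± 8.97 TPM, and 7.96 ± 3.52 and 51.5 ± 6.84 TPM. Over the 10 genes the ratio of means ran from 6.62 (Gm10721) to 9.88 (Gm10720) in preexisting RNA and from 5.54 (Gm10715) to 7.92 (Gm10720) in labelled RNA.

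**Figure D3:**
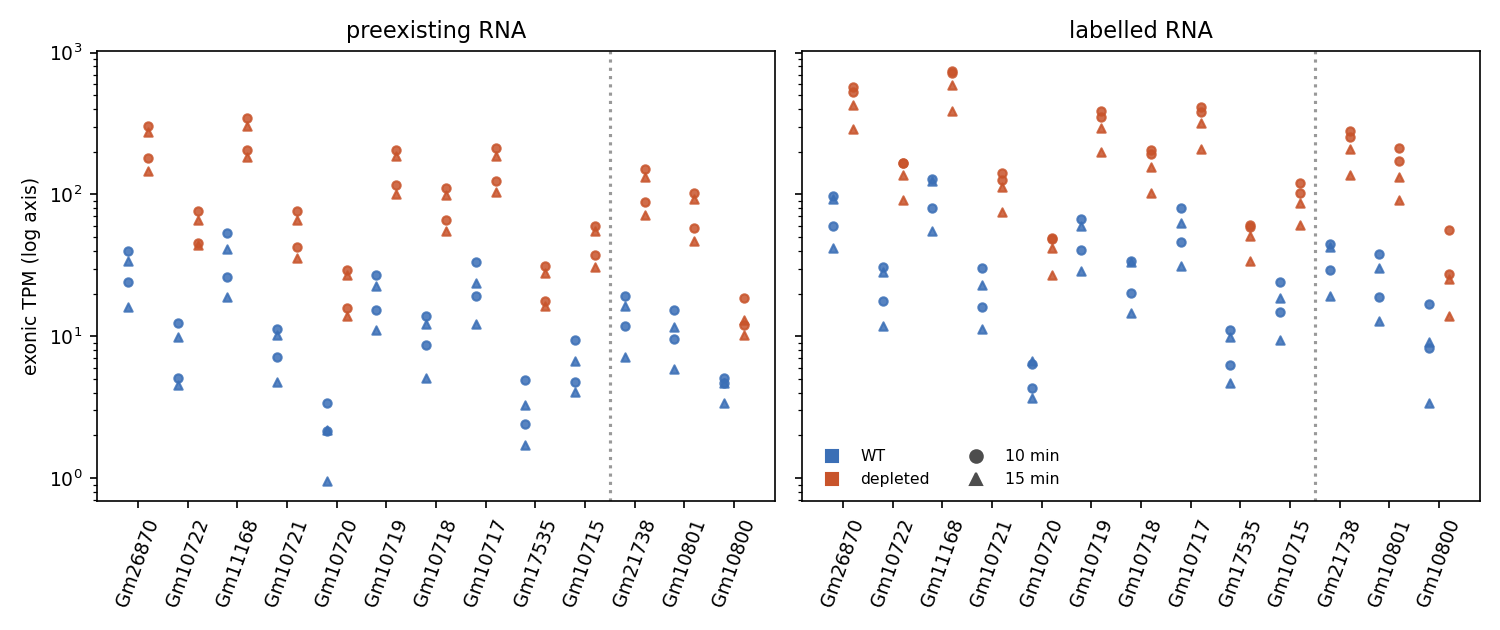
Exonic TPM on a log axis for each of the 10 array genes and, right of the dotted line, 3 satellite-rich genes elsewhere, in preexisting (left) and labelled RNA (right). Blue marks WT and orange Dicer-depleted libraries, circles 10 min and triangles 15 min. For all 10 array genes the depleted libraries lie above the WT libraries in both fractions, and for Gm10800 they overlap in labelled RNA.

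For all 10 genes the lowest depleted library lay above the highest WT library in labelled RNA, by 2.45 to 4.09 times, where 10.9% of all 21821 genes tested had every depleted library above every WT library. On the log2(TPM + 1) scale, which understates the change of low genes, the difference was 2.43 (SE 0.38) for Gm10715 to 2.76 (SE 0.37) for Gm10720. The median was 2.65 over the members against 0.06 over all genes tested. Of the 21821 genes 33 had a log2 change above the members' median, members themselves and a satellite-rich gene elsewhere (2.68) among them. None of the 10 passed the threshold of 0.05 after adjustment over all genes tested (limma, adjusted p = 0.0542 to 0.0939), although all 10 had an unadjusted p under it (7.2e-05 for Gm10720 to 0.000356 for Gm10721). In this contrast 28 genes (0.128%) were called, 20 higher and 8 lower, and 2963 had an unadjusted p under 0.05. The balance of these calls was not stable, with 9 higher and 6 lower after median centring, 5 higher and 38 lower without WT culture 1, none without WT culture 2, and 9 higher and 17 lower at 15 min alone. With a pseudocount of 10 TPM in place of 1, Gm10722, Gm10720, Gm10718, Gm17535 and Gm10715 passed (limma, adjusted p = 0.0406 to 0.0496). Of all 21821 genes 49 were called higher and 9 lower there. With TPM averaged before the log Gm10720 passed at 0.0492, where 26 of all genes were called higher and 9 lower. The labelled libraries come from the same cultures as the preexisting ones that chose the members, so this comparison does not stand apart from that choice.

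In preexisting RNA the genotypes did not overlap for any of the 10 genes either, where 7.03% of all genes had every depleted library above every WT library. The log2 change was 2.58 (Gm17535) to 2.96 (Gm10718), with a median of 2.80 against 0.03 over all genes. In this contrast 141 genes (0.646%) passed the threshold, 109 higher and 32 lower, and that count was 0 to 267 under the other settings tried. After median centring it was 21 higher and 19 lower, and without any single culture it was 0. These values chose the members and carry no test here. Ranked by mean TPM among the 21821 genes, Gm11168 stood at 3790 in WT and 567 in depleted preexisting RNA, and at 1456 and 146 in labelled RNA, while Gm10720 stood at 13751 and 5330, and at 12077 and 3145.

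Introns of the repeat models gave the same picture as their exons. In preexisting RNA the introns summed to 57.6 ± 24.0 TPM for WT cultures and 436 ± 167 TPM for depleted ones, and 147 ± 60.3 and 892 ± 137 TPM in labelled RNA (SD, n = 2 cultures), ratios of 7.57 and 6.07. All 26 transcripts of the 10 genes were in the deposited table, each with an exonic and an intronic entry. The exonic entries were 5.84-fold to 11.8-fold higher in depleted preexisting RNA, both extremes being isoforms of Gm10717, and 5.43-fold (a Gm10717 isoform) to 7.92-fold (Gm10720) higher in depleted labelled RNA, with no overlap for any of the 26 in either fraction. Of all exonic entries with a mean of at least 1 TPM, 7.3% in preexisting and 9.69% in labelled RNA had every depleted library above every WT library. The 26 entries share reads and are not independent. Of the intronic entries, 2 of Gm10717 and 1 of Gm11168 were listed at 0 in all libraries, and of the other 23 a further one of Gm10717, at most 2.78 TPM, overlapped between genotypes in both fractions while 22 did not. Those 22 had a mean of at least 1 TPM, and of all intronic entries at that level 15.4% in preexisting and 20.7% in labelled RNA stood apart in this direction. The introns lie within the same repeat as the exons, so spliced and unspliced RNA cannot be told apart by these entries.

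The repeat signal was a larger share of labelled than of preexisting RNA in every pair of libraries from a culture and time. Each library is scaled to the same total, so the ratios below compare shares within a fraction and not amounts of RNA. The ratio of labelled to preexisting summed TPM was 2.59 in WT culture 1 and 2.67 in WT culture 2. It was 3.21 in depleted culture 1 and 1.52 in depleted culture 2, so the WT cultures lay between the depleted ones. For depleted culture 2 the ratio was 1.85 at 10 min and 1.14 at 15 min, the lowest of the 8 pairs. All 10 genes were higher in labelled RNA in all 8 pairs, as were 29.7% of all genes tested.

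Tested within cultures over both genotypes, all 10 rose in labelled against preexisting RNA, by 0.98 (SE 0.22) for Gm10720 to 1.35 (SE 0.18) for Gm11168 on the log2 scale (limma, adjusted p = 0.0108 and 0.00187, the extremes of the 10). Of all genes 8614 (39.5%) were called higher and 3845 lower, so a call in this direction was common, and the median over all genes was 0.26 against 1.16 over the members. With each library centred on its median, 5514 genes were called higher and 8580 lower, the members' median was 0.67, and 8 of 10 members passed, all but Gm10721 and Gm10720. The members' median was 1.15 without WT culture 1 and 1.17 without WT culture 2. It was 0.88 without depleted culture 1 and 1.45 without depleted culture 2. In the reported fit 22.1% of the tested genes had a log2 change above the members' median of 1.16.

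4sU replaces uridine, and the members differ in uridine content by strand. The plus-strand members have 46.2 to 47.5% U in their spliced transcripts, above the 99th percentile of all genes (36.5%, with a median of 25.2% over 46130 genes), while Gm26870 has 18.1% U and 45.9% A. The log2 change from preexisting to labelled RNA was 1.18 (SE 0.19) for Gm26870 and 0.98 to 1.35 for the 9 others, so Gm26870 lay within their range. The strand setting is not given, so reads of both strands may have been counted on either gene. The part of uridine content in these values was not tested.

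**Figure D4:**
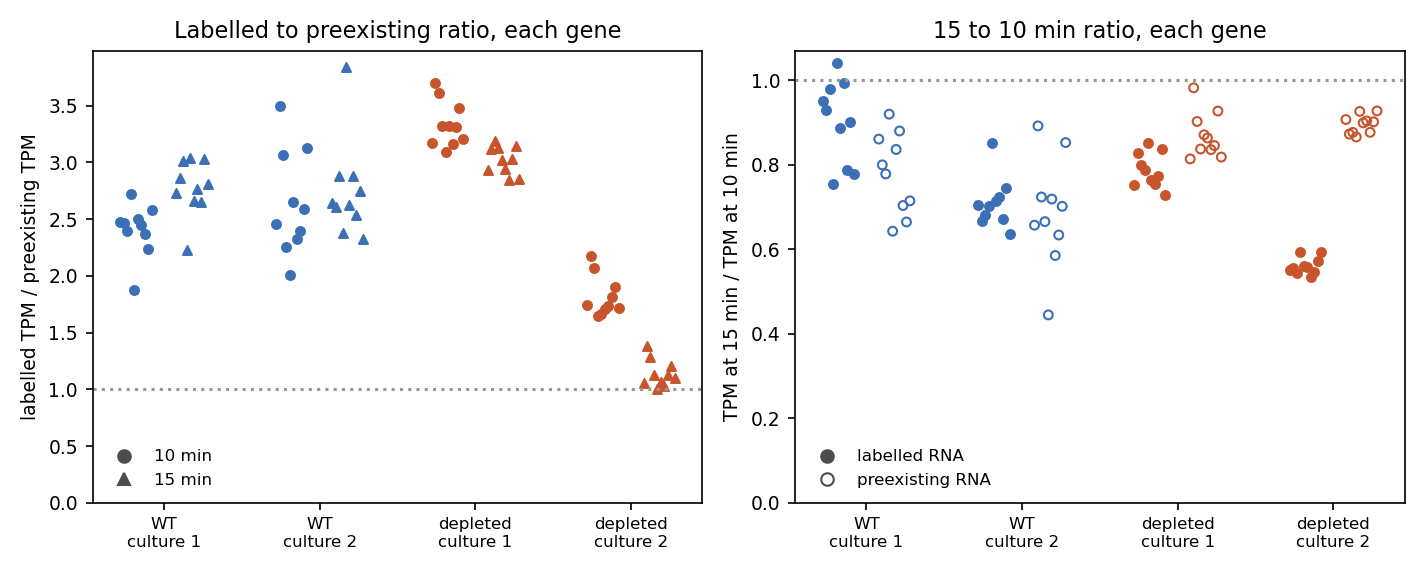
Left, labelled TPM divided by preexisting TPM for each of the 10 genes in each culture, at 10 min (circles) and 15 min (triangles). Right, TPM at 15 min divided by TPM at 10 min in labelled RNA (filled) and preexisting RNA (open), with blue for WT and orange for depleted cultures. Depleted culture 2 has the lowest ratios in the left panel and the lowest labelled ratios in the right panel.

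The signal was lower at 15 than at 10 min of labelling in both fractions. In labelled RNA the sum at 15 min was 0.905 and 0.693 times that at 10 min in WT cultures 1 and 2, and 0.777 and 0.553 times in depleted cultures 1 and 2. In preexisting RNA it was 0.797, 0.687, 0.862 and 0.891 times. In labelled RNA 9 of the 10 genes were lower at 15 min in all 4 cultures, where 9.68% of all genes were, and Gm10720 was lower in 3 of 4. In preexisting RNA all 10 were lower in all 4 cultures, where 4.05% of all genes were.

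None of these time differences passed the threshold. In labelled RNA the members' log2 change ran from -0.54 to -0.29 with a median of -0.45 (limma, adjusted p = 0.474 to 0.531), and 9 of 10 had an unadjusted p under 0.05, as had 2267 of all genes (10.4%). Of all genes 1 (0.00458%) was called. In preexisting RNA it ran from -0.38 to -0.16 with a median of -0.28 (adjusted p = 0.867 for each), 2 of 10 had an unadjusted p under 0.05, and 0% of all genes were called, with 960 under an unadjusted 0.05. Each culture has 1 library per fraction and time, so the direction rests on 4 pairs per fraction.

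Genes elsewhere that hold the repeat carried part of the same signal, and none of 3 passed between genotypes in labelled RNA. Apart from the 10 members, 3 genes had at least 25% of their 16-base words in the block: Gm21738 on chromosome 14 (57.6%), Gm10801 on chromosome 2 (54.5%) and Gm10800 on chromosome 2 (52.4%). Gm21738, whose unit is 96.2% identical to the reference, averaged 13.6 ± 5.90 TPM in WT and 111 ± 43.8 TPM in depleted preexisting RNA, and 33.97 ± 13.7 and 220.1 ± 34.7 TPM in labelled RNA (SD, n = 2 cultures). Gm10801 (94.4%) averaged 10.6 ± 4.05 and 74.9 ± 31.6 TPM, and 25.1 ± 13.0 and 152 ± 28.5 TPM. Gm10800 averaged 4.48 ± 0.593 and 13.5 ± 3.35 TPM, and 9.38 ± 5.06 and 30.8 ± 14.4 TPM. Its match was sought within single exons, the longest of 306 bases, and was 78.2% identical. That match begins in the later part of the reference unit and runs on into the start of a unit. The 78.2% therefore understates the likeness of Gm10800 and cannot be set beside the other identities.

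In preexisting RNA the log2 difference was 2.96 for Gm21738, 2.71 for Gm10801 and 1.38 for Gm10800. Since these genes can take reads from the same repeat copies, their values are no separate measurement of the array, and this contrast, which chose the members, is given for them with no test. In labelled RNA the log2 differences were 1.62 to 2.68 (limma, adjusted p = 0.0919 to 0.231, all 3 with an unadjusted p under 0.05). Whether the smaller log2 change of Gm10800 differs from that of the members was not tested.

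Among 11785 other genes and entries with a mean of at least 5 TPM, the 5 most like the summed array signal over the 16 libraries by Pearson's r on log2(TPM + 1) were Gm21738 (r = 0.999), Gm10801 (0.997), 2 assembled transcripts with no gene name in the annotation, TCONS_00004065 (0.963) and TCONS_00042374 (0.961), and Spats2l (0.951). Spats2l, on chromosome 1, had no 16-base word in common with the block. It averaged 1.08 ± 0.0103 TPM in WT and 11.1 ± 2.01 TPM in depleted preexisting RNA, and 2.97 ± 0.721 and 20.6 ± 0.420 TPM in labelled RNA (SD, n = 2 cultures). TCONS_00042374 averaged 0.434 and 1.63 TPM in WT preexisting and labelled RNA, against 6.6 and 14.3 TPM in depleted cells. Both Spats2l and TCONS_00042374 were under 5 TPM in WT and reached the required mean only through the depleted libraries. Their high r with a signal chosen as higher in depleted cells follows in part from that. The r values describe 16 libraries in 4 groups of genotype and fraction and carry no test. The unmatched entries could not be placed in the genome here.

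The genes that follow the block on chromosome 9 did not pass the threshold. The next 6 genes past the filter within 1.5 Mb, chosen by position after the members' values were known, were 4930433N12Rik, Alkbh8, Cwf19l2, Gm22195, Aasdhppt and Msantd4. None passed in labelled or preexisting RNA, with log2 changes of -0.70 to 0.94 in labelled RNA (limma, adjusted p = 0.483 to 0.962) and -0.63 to 0.28 in preexisting RNA (0.632 to 0.932), and 0 of 6 had an unadjusted p under 0.05 in either. Alkbh8, a transfer RNA methyltransferase gene at chr9:3335140-3391154, averaged 12.4 ± 2.15 TPM in WT and 13.0 ± 0.0742 TPM in depleted labelled RNA.

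Genes for heterochromatin factors did not pass the threshold between genotypes in either fraction. Of 34 such genes, 0 were called in labelled RNA (limma), where 5 had an unadjusted p under 0.05 beside 13.6% of all genes tested. In preexisting RNA 0 were called as well, and 9 had an unadjusted p under 0.05 beside 17.8% of all genes (3886). The median log2 change of the list was -0.13 in labelled RNA against 0.06 for all genes, and 0.07 in preexisting RNA against 0.03. Suv39h1, a histone H3 lysine 9 methyltransferase, averaged 29.5 ± 2.18 TPM in WT and 35.5 ± 0.351 TPM in depleted labelled RNA. Cbx5, which encodes HP1 alpha, averaged 163 ± 42.5 and 149 ± 11.1 TPM. Trim28, a corepressor that recruits H3 lysine 9 methylation, averaged 529 ± 104 and 403 ± 71.6 TPM. Between fractions 4 of the 34 (Suv39h1, Setdb2, Kmt5b and Kdm4c) were called higher and 17 lower in labelled RNA, with a median log2 difference of -0.33. That split depended on the scaling and on single cultures: it was 1 higher (Suv39h1) and 28 lower with each library centred on its median, 2 and 11 without WT culture 1, and 1 and 8 without WT culture 2.

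Dnmt3b had the lowest log2 change of the list in both fractions, and other genes of the list rose. In preexisting RNA the 34 changes ran from -1.02 to 1.02, 19 of them positive and 15 negative. In labelled RNA they ran from -1.07 to 0.67, 14 positive and 20 negative. Dnmt3b, which encodes a de novo methyltransferase, averaged 196.5 ± 9.54 TPM in WT and 93.3 ± 6.12 TPM in depleted labelled RNA (log2 change -1.07, SE 0.18, limma, adjusted p = 0.0941). In preexisting RNA it averaged 417 ± 11.8 and 206 ± 43.5 TPM (log2 change -1.02, adjusted p = 0.0575), and with the replicate number as a block it passed at 0.0426, the only gene of the list to do so. Dnmt3l, which encodes their cofactor, averaged 193 ± 49.4 and 97.2 ± 8.11 TPM in labelled RNA (log2 change -0.98, adjusted p = 0.285). Dnmt1, the maintenance enzyme, averaged 30.03 ± 0.413 and 32.2 ± 2.11 TPM.

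**Figure D5:**
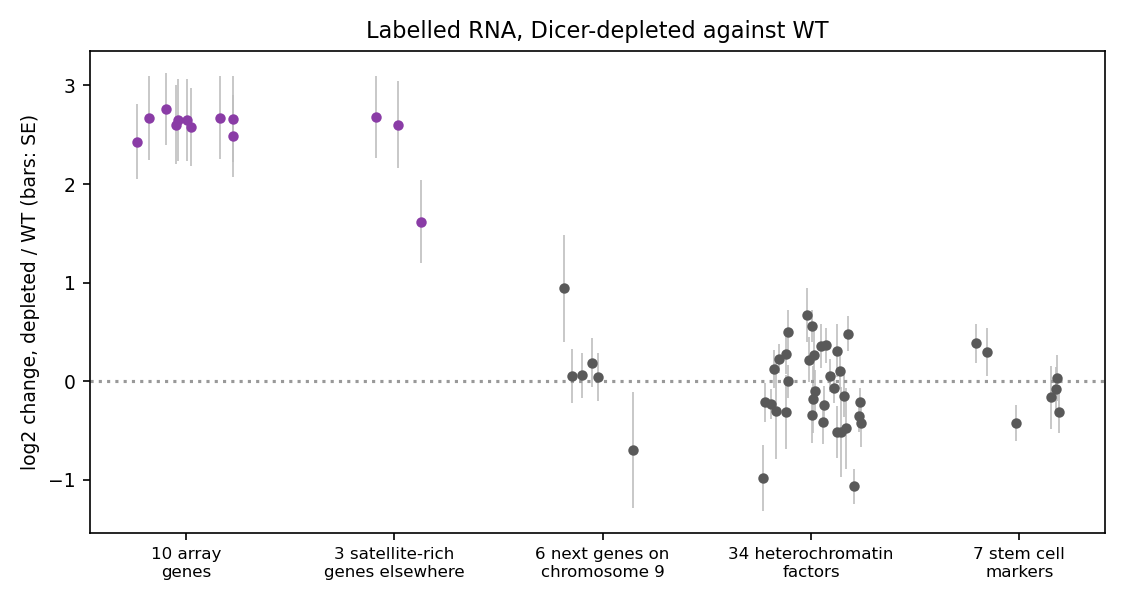
Log2 change in labelled RNA from WT to Dicer-depleted cells, with bars for the standard error, for the 10 array genes, the 3 satellite-rich genes elsewhere, the 6 next genes on chromosome 9, 34 heterochromatin factors and 7 stem cell markers. The array genes lie between 2.43 and 2.76, and the heterochromatin factors between -1.07 and 0.67.

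Genes of the 2-cell-like state, which stem cells enter rarely and in which satellite RNA is known to be high, were mostly under the filter. Of 14 listed genes 13 were in the table and 2 passed the filter, Eif1a and Gm4340. Neither was called in the labelled or the preexisting comparison between genotypes (limma, adjusted p = 0.684 to 0.914, 0 of 2 with an unadjusted p under 0.05). The Zscan4 genes, which define that state, were under 1 TPM in every group mean, and all 3 in the table had higher means in depleted than in WT labelled RNA. Zscan4f averaged 0.045 ± 0.0516 TPM in WT and 0.679 ± 0.755 TPM in depleted labelled RNA, Zscan4d 0.0125 ± 0.00778 and 0.217 ± 0.186 TPM, and Zscan4c 0.0318 ± 0.0357 and 0.2905 ± 0.28 TPM (SD, n = 2 cultures). Zscan4d and Zscan4f did not overlap between genotypes in labelled RNA, and Zscan4c did. No WT labelled library was above 0.036 TPM for Zscan4d or 0.098 TPM for Zscan4f. Of the 21821 genes past the filter 10.9% had every depleted labelled library above every WT one. That set leaves out Zscan4d and Zscan4f, so it does not give the share for genes at their level. Of the other listed genes, Zfp352, Tmem92, Usp17lc and Usp17ld had lower means in depleted labelled RNA. Tcstv1, Tcstv3, Gm4340, Usp17la and Eif1a had higher ones, and Duxf3 was at 0 TPM in both genotypes. In preexisting RNA all 3 Zscan4 genes overlapped, with Zscan4f means of 0.115 ± 0.102 (WT) and 0.0842 ± 0.0951 TPM (depleted). The summed list, most of it Eif1a, was 78.7 to 116 TPM in WT and 71.8 to 157 TPM in depleted labelled libraries, and 122 to 136 and 91.8 to 149 TPM in preexisting ones. The part of such cells in the repeat signal was not tested.

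MicroRNAs of the miR-290 family, which Dicer makes, are among the most abundant in mouse stem cells, and the mature miR-294-3p is printed because its seed, bases 2 to 8 in capitals, defines the site searched for.
mmu-miR-294-3p: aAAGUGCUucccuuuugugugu

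The matching site AGCACTT occurred in 0 of the 26 member transcripts on the sense strand, where 13.5% of all transcripts in the table held it. It occurred on either strand in 0 of the 162 windows of 234 bases in the block, where 5.09% of windows in the rest of chromosome 9 did. This says only that these letters are not in these sequences. The mature sequence is from RefSeq.

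Several measures of the libraries moved with genotype. Dicer1 itself, the check of the labels, ran from 13.4 to 17.9 TPM in WT preexisting RNA and from 1.20 to 3.37 TPM once depleted, and 7.34 to 9.65 against 2.35 to 3.52 TPM in labelled RNA, without overlap. The intronic share of all signal in labelled RNA was 15.5 to 18.4% in WT and 18.5 to 23.3% in depleted libraries, and the summed TPM of 1210 olfactory receptor genes, which stem cells barely transcribe, was 28.2 to 41.8 in WT and 46.4 to 71.9 in depleted labelled libraries. In preexisting RNA these were 4.41 to 5.49% against 5.37 to 6.68%, and 7.78 to 15.7 against 10.2 to 31.997 TPM. The part of these measures in the repeat signal was not tested. Stem cell markers were present, the 7 listed summing to 733 to 1543 TPM over the libraries. Trophoblast, primitive endoderm and fibroblast markers summed to at most 2.93 TPM. The 3 primed epiblast markers summed to 13.8 to 78.7 TPM, nearly all of it Otx2. Otx2, the single tested gene of these 3, was not called between genotypes (limma, adjusted p = 0.509 in preexisting and 0.856 in labelled RNA). The cells thus carried the markers of the labelled type, and Otx2 of the primed list beside them.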

How the data were processed

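Exonic and intronic RNA was quantified in 16 libraries. Per the labels' protocols, the authors removed ribosomal reads with STAR 2.5.0, aligned the rest to exonic and intronic sequences and ran RSEM; the build is mm10 per the submitters' processing notes. The annotation and strand setting are not given in the sources used here. The deposited signal is named TPM, but each column summed to 9999997 to 10000003, so values were divided by 10. Depth is unknown, which leaves counting error unmeasured. Of 121429 exonic entries 110366 matched a GENCODE M21 gene and were summed per gene, the others staying single entries.

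Labelling times were averaged per culture on log2(TPM + 1). Genes with a mean of at least 1 TPM were fitted with limma 3.58.1 (R 4.3.3, trend), all groups together without a replicate block, and p-values were adjusted by Benjamini-Hochberg over 21821 genes with a threshold of 0.05. Fraction and time contrasts were made within cultures. The script was tested on simulated data. Sequence words had 16 bases. Named genes were the members, Dicer1, genes with at least 25% of their words in the block, fixed lists (heterochromatin, 2-cell-like and cell type markers, olfactory receptors), and the 5 most correlated genes. The members and lists were chosen with earlier results of these data known. Figures were drawn with matplotlib 3.10.9 in Python 3.11.15.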

Additional observations from a re-analysis of the deposited data

How the results depend on the processing

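Alternatives covered the pseudocount (0.1 or 10 TPM), no filter, median centring, single labelling times, averaging before the log, separate fits by fraction and leaving out each culture. No member's log2 change reversed under any of them. In labelled RNA the members past the threshold were 0 in the reported fit, 5 with a pseudocount of 10 and 1 with TPM averaged before the log. The median member change between fractions was 0.67 after median centring, against 1.16. The cause of these shifts was not tested. Leaving out a culture, the members' median was 2.18 to 3.07 in labelled RNA, 2.38 to 3.25 in preexisting RNA and 0.88 to 1.45 between fractions. For time it was -0.57 to -0.32 in labelled and -0.31 to -0.22 in preexisting RNA.

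Counts over all genes were less stable. The 28 labelled calls became 0 with a pseudocount of 0.1, without WT culture 2 or with the fraction fitted alone, 15 after centring, 58 with a pseudocount of 10, 86 with no filter, and 43, 53 and 76 without WT culture 1, depleted culture 1 and depleted culture 2. The 141 preexisting calls became 0 with no filter, without any single culture or with the fraction fitted alone, 2 with a pseudocount of 10, 40 after centring, 23 with TPM averaged first, and 1 and 7 at 10 and 15 min alone. The 12459 fraction calls became 8166 and 7464 without WT culture 1 and 2, and 7413 at 10 min alone. The single time call in labelled RNA became 0 to 3.

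Same-numbered cultures share only a number, with 2 pairs whose deviations correlated at 0.162 in labelled and 0.219 in preexisting RNA. With the replicate block, 0 members passed in labelled RNA, 267 genes were called in preexisting RNA, and 1 heterochromatin gene, Dnmt3b, passed there against 0 without it. Depth is unknown, and 2 cultures per genotype limit every test.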
